A study of Mus musculus with 20 samples.

Results

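Triglyceride assembly in brown fat was read from 9 genes that encode enzymes of the glycerol phosphate route: the glycerol-3-phosphate acyltransferases Gpam and Gpat3, the lysophosphatidate acyltransferases Agpat2 and Agpat3, the phosphatidate phosphatases Lpin1, Lpin2 and Lpin3, and the diacylglycerol acyltransferases Dgat1 and Dgat2. They were chosen by name from the pathway, with earlier results of these data known. They are 9 of the 55471 gene IDs in each table and 9 of the 15233 genes that passed the filter on low counts, so none was lost to that filter. The tissue was brown adipose tissue of mice, a fat that oxidises its lipid stores for heat. Polyadenylated RNA was sequenced from 5 libraries each of adipose-specific CEBPB knockout tissue after 4 h of cold stress (KO cold), knockout tissue at room temperature (KO RT), wild-type tissue after 4 h of cold stress (WT cold) and wild-type tissue at room temperature (WT RT), 20 in all. CEBPB is the transcription factor C/EBP beta. The labels describe the deletion as specific to adipose tissue, name no driver for it, and do not say whether each library is a separate animal. P values therefore measure the spread between libraries, which may be technical.

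The route adds a first acyl chain to glycerol 3-phosphate (GPAT enzymes), a second to lysophosphatidate (AGPAT enzymes), removes the phosphate (lipins) and adds the last acyl chain to diacylglycerol (DGAT enzymes). Dgat1 and Dgat2 catalyse the same last reaction but belong to unrelated protein families, and loss of AGPAT2 causes generalized lipodystrophy in humans and mice. In brown fat the same lipid droplets are broken down to feed heat production in the cold and are rebuilt by this route.

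Libraries held 27.07 to 55.18 M reverse-strand gene counts. Cebpb, the targeted gene, averaged 1.92 ± 0.277 CPM (gene counts scaled to a common library size) in KO cold and 143 ± 22.4 CPM in WT cold libraries, and 0.564 ± 0.253 CPM in KO RT and 105 ± 19.9 CPM in WT RT libraries (SD, n = 5 each), so every library matched its genotype label. The 12 brown adipocyte markers were all detected in every group, and their summed level ran from 24824.0 to 27544.8 CPM in KO cold and from 16075.0 to 19485.3 CPM in KO RT libraries, and from 25766.2 to 30110.9 CPM in WT cold and from 16377.8 to 21820.7 CPM in WT RT libraries. Of these 12, 4 were higher and 6 lower with cold in KO tissue, and 4 were higher and 5 lower in WT tissue. Of all tested genes, 27.5% were called higher and 31.7% lower in KO, and 26.2% and 30.2% in WT tissue. WT cold replicate 5 and WT RT replicate 4 stood between the temperatures on the first principal component, which held 53.9% of the variance of log2 CPM. WT cold replicate 5 scored -26.6, where the other cold libraries scored -51.8 to -37.6, and WT RT replicate 4 scored 23.4, where the other libraries at room temperature scored 39.5 to 56.3. Results that rest on either are given with and without it.

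Promoter sequence is shown for Gpam, Lpin3 and Agpat2, because their changes with cold in at least 1 genotype held their calls in every fit tried and a window was at hand for them. Windows run from 250 bases before to 50 bases after a RefSeq transcript start on GRCm38.p6, written 5′ to 3′ on the strand of the gene. Of the 9 genes, 7 matched an entry, with 11 windows between them, and Dgat1 and Dgat2 are named only. Capitals mark matches on either strand to the short form of the cAMP response element, TGACG, the C/EBP core TTGCNNAA and the E-box CACGTG.
Gpam, upstream start, chr19:55127189-55127488, minus strand: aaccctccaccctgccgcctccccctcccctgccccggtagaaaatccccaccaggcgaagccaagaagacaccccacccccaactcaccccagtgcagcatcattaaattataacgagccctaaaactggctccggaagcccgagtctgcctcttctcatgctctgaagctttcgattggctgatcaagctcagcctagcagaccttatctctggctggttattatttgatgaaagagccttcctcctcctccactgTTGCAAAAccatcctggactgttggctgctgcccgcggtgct
Gpam, downstream start, chr19:55099428-55099727, minus strand: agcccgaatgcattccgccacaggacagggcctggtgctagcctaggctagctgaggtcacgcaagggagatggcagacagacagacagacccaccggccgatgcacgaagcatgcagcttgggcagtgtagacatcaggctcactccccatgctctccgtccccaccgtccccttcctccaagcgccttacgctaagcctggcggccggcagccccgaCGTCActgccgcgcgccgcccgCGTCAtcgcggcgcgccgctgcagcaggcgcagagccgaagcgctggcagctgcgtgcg
Lpin3, upstream start, chr2:160880420-160880719, plus strand: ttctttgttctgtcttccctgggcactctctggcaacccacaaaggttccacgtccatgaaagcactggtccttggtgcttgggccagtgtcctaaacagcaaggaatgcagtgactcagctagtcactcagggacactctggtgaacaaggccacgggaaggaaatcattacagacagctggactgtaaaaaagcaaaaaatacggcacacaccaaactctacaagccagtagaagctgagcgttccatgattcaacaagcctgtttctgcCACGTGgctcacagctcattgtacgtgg
Agpat2, chr2:26604368-26604667, minus strand: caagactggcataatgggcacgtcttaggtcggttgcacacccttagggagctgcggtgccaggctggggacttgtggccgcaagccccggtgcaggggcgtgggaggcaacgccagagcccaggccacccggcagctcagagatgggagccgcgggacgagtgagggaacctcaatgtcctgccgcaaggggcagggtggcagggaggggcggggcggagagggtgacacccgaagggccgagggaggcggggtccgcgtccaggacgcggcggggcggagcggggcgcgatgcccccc

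The upstream Gpam window held 1 C/EBP core match, TTGCAAAA, at bases 8 to 15 after the start. The downstream Gpam window held 2 matches to TGACG, read as CGTCA on the strand shown, at -31 to -27 and -9 to -5. The Lpin3 window shown held 1 E-box at bases 22 to 27, a second Lpin3 window at chr2:160887918-160888217 held no match to any motif searched, and the Agpat2 window held no match to any motif searched. Among the 32851 promoter windows of the reference table, 20.8% held TGACG, 10.8% held TTGCNNAA and 7.15% held CACGTG. The longer motifs searched were the whole cAMP response element TGACGTCA (in 1.79% of windows), the NR4A monomer site AAAGGTCA (1.51%), the SREBP site TCACNCCAC (1.24%) and the direct repeat bound by PPAR (0.0396%), and none of the 11 windows of these genes held one. A match describes letters in a window and is not evidence of binding.

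With cold, genes of the route were called in both directions. In KO tissue 4 of the 9 were higher in the cold (Gpam, Lpin2, Lpin3 and Dgat1) and 2 were lower (Agpat2 and Dgat2), where 27.5% of all tested genes were called higher and 31.7% lower. In WT tissue 3 of the 9 were higher (Gpam, Lpin3 and Dgat1) and 1 was lower (Dgat2), where 26.2% of all tested genes were called higher and 30.2% lower. The median log2 fold change of the 9 was -0.07 in KO and -0.05 in WT tissue, beside -0.05 over all tested genes in each. Calls are edgeR quasi-likelihood tests with Benjamini-Hochberg adjustment over all 15233 genes at a threshold of 0.05. In bulk tissue, fewer cells of a type and less RNA per cell cannot be told apart.

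**Figure D1:**
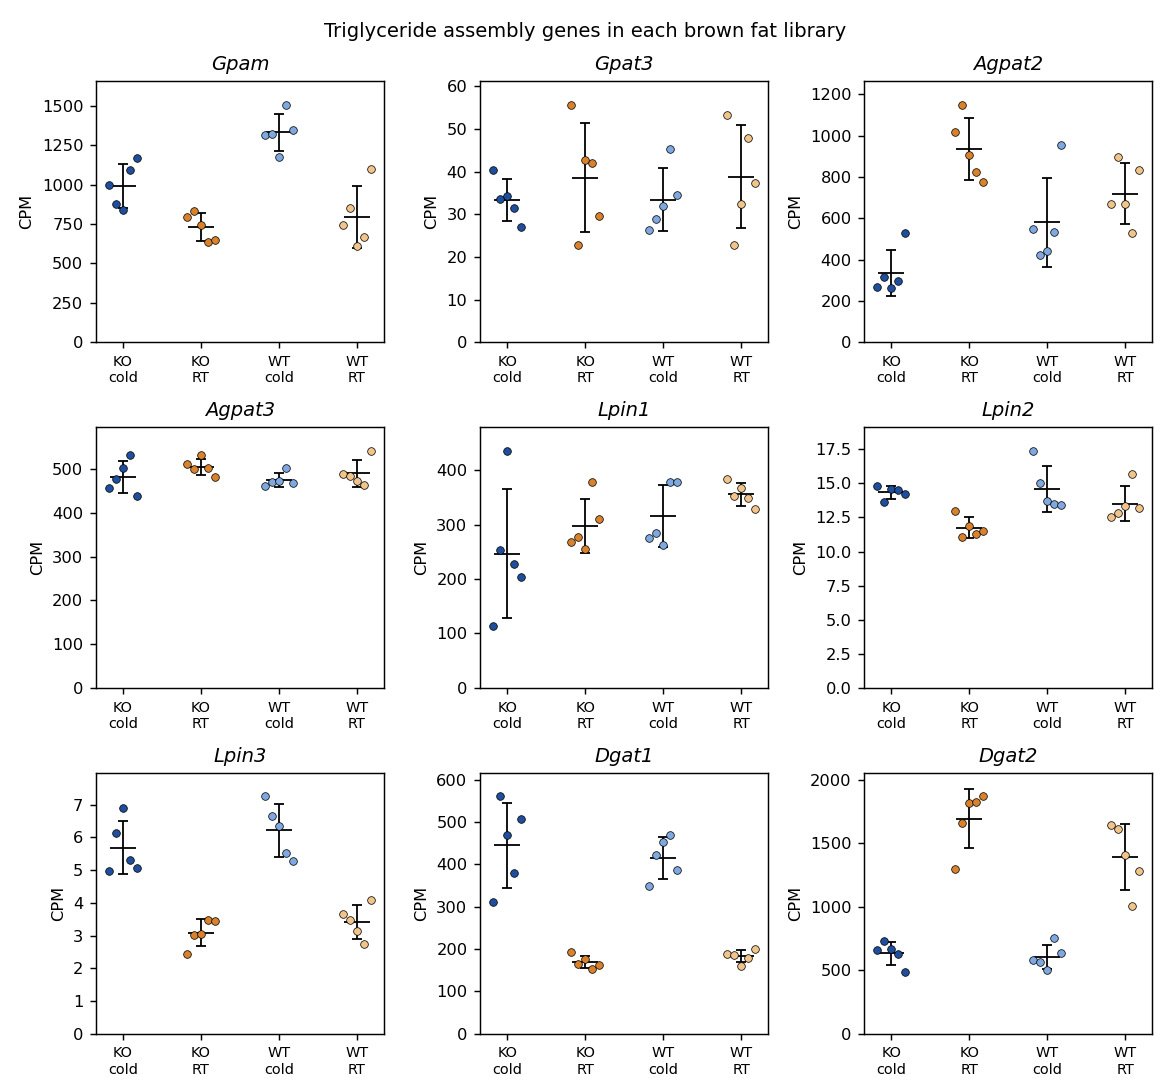
Level of each of the 9 triglyceride assembly genes in CPM (vertical axis, linear, from 0) in the 20 libraries, grouped by genotype and temperature; points are libraries and bars are the mean and SD of 5. Dgat1, Lpin3, Dgat2 and, narrowly, Gpam separate cold from room temperature within each genotype, and Gpat3 and Agpat3 overlap in all groups. Agpat2 lies at 263 to 531 CPM in KO cold libraries against 778 to 1150.1 CPM in KO RT libraries.

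Gpam (chr19:55067268-55127238, minus strand) encodes the acyltransferase of the outer mitochondrial membrane that starts the route. It measured 1000.0, 877, 837, 1090.6 and 1167.1 CPM in KO cold libraries, against 798, 834, 742, 637 and 646 CPM in KO RT libraries. In WT tissue it measured 1315.7, 1321.7, 1178.6, 1508.0 and 1345.5 CPM in cold libraries, against 747, 855, 608, 666 and 1101.2 CPM in RT libraries. Cold and RT libraries did not overlap within either genotype, although the lowest KO cold library (837 CPM) was next to the highest KO RT library (834 CPM), and WT RT replicate 5 came close to the lowest WT cold library. Gpam rose 1.36-fold in KO (log2 0.44 ± 0.132 SE, adjusted p = 0.00663) and 1.68-fold in WT tissue (0.75 ± 0.132, adjusted p = 6.67e-05) by edgeR's quasi-likelihood test.

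Gpat3 (chr5:100845713-100899102, plus strand) encodes a GPAT enzyme of the endoplasmic reticulum. It ranged from 27 to 40.4 CPM in KO cold and from 22.7 to 55.7 CPM in KO RT libraries, and from 26.3 to 45.4 CPM in WT cold and from 22.9 to 53.4 CPM in WT RT libraries. All 4 groups overlapped, and neither cold comparison passed the test (log2 -0.21 ± 0.239 in KO and -0.22 ± 0.238 in WT tissue). Exons of Gpat3 overlap an antisense gene, 4930458D05Rik, which drew 629 reverse-strand counts over the 20 libraries beside 26222 for Gpat3. Per kilobase of exon, Gpam made up 63 ± 5.63% of the summed GPAT level (Gpam, Gpat2, Gpat3 and Gpat4) in KO cold, 60.8 ± 3.22% in KO RT, 62.2 ± 3.82% in WT cold and 57 ± 6.34% in WT RT libraries. Gpat3 made up 4.07, 6.09, 2.95 and 5.43% in the same groups, and Gpat4, the GPAT of the endoplasmic reticulum that is not among the 9 genes, made up most of the rest.

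Agpat2 (chr2:26593057-26604417, minus strand) encodes the main adipose enzyme of the second acylation. It measured 269, 318, 263, 295 and 531 CPM in KO cold libraries, against 1016.6, 1150.1, 906, 825 and 778 CPM in KO RT libraries. Its WT values were 547, 423, 440, 535 and 954 CPM in cold libraries, against 667, 898, 668, 529 and 832 CPM in RT libraries. The KO libraries separated by temperature without overlap, while in WT tissue cold replicate 5 lay above all 5 RT libraries. Agpat2 fell 2.79-fold with cold in KO tissue (log2 -1.48 ± 0.235, edgeR quasi-likelihood adjusted p = 3.03e-05) or, without KO cold replicate 5, log2 -1.68, and in WT tissue its log2 fold change of -0.31 ± 0.23 did not pass (adjusted p = 0.269). Without WT cold replicate 5 the WT value was -0.54 and passed (adjusted p = 0.0298), and without both intermediate WT libraries it was -0.63 (adjusted p = 0.0134).

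The difference between the cold changes of Agpat2, KO minus WT, was -1.17 ± 0.327 on the log2 scale and did not pass over all genes by edgeR's quasi-likelihood interaction test (unadjusted p = 0.00219, adjusted p = 0.136). Without KO cold replicate 5, whose 531 CPM was the highest of its group, that difference was -1.40 and passed (adjusted p = 0.0359). It did not pass with any other library left out, WT cold replicate 5 among them. Over all 20 such fits it ran from -1.40 to -0.92, with an adjusted p up to 0.242. The fall in KO tissue is therefore not shown to differ from the smaller value in WT tissue with all 20 libraries. Exons of Agpat2 overlap the opposite-strand gene Egfl7, which drew 18912 reverse-strand counts over the 20 libraries beside 478541 for Agpat2.

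Agpat3 (chr10:78269178-78352489, minus strand) encodes a second AGPAT of the endoplasmic reticulum and Golgi. Its level was nearly flat, from 439 to 532 CPM in KO cold, 481 to 531 CPM in KO RT, 461 to 502 CPM in WT cold and 464 to 542 CPM in WT RT libraries. Its cold changes of -0.07 ± 0.0572 in KO and -0.05 ± 0.0572 in WT tissue (log2 ± SE) were the closest to 0 of the 9 genes in each genotype and did not pass. Within a library, the ratio of Agpat2 to Agpat3 per length had a geometric mean of 2.46 in KO cold and 6.71 in KO RT libraries, a log2 difference of -1.45 (exact 2-sided permutation p = 0.00794, the smallest that 5 against 5 can give, adjusted p = 0.0317 over 20 ratio tests). It was 4.26 in WT cold and 5.28 in WT RT libraries, which did not pass (log2 -0.31, exact 2-sided permutation p = 0.238, adjusted p = 0.308). The KO ratio missed the threshold without any 1 KO RT library (log2 -1.49 to -1.37, adjusted p 0.0529 to 0.0635) and passed with each KO cold library left out in turn. Exact p values from so few libraries come in coarse steps. The adjusted p also depends on how many of the 20 ratio tests reach the smallest, so such a loss need not mean a smaller shift. Agpat2 made up 56.9 ± 7.9% of the summed AGPAT level per length (Agpat1 to Agpat5) in KO cold, 81.4 ± 2.29% in KO RT, 70.7 ± 6.65% in WT cold and 77.1 ± 3.1% in WT RT libraries.

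Lpin1 (chr12:16535669-16610966, minus strand) encodes the main lipin of adipose tissue, which removes the phosphate from phosphatidate and is mutated in the fatty liver dystrophy mouse. It measured 113, 253, 436, 228 and 203 CPM in KO cold libraries, against 268, 277, 255, 379 and 310 CPM in KO RT libraries. In WT tissue it measured 276, 285, 262, 379 and 378 CPM in cold libraries, against 384, 352, 368, 348 and 328 CPM in RT libraries. KO cold replicate 1 was the lowest and KO cold replicate 3 the highest of all 20 libraries, so the KO cold group spanned every other group. Neither cold change passed edgeR's quasi-likelihood test (log2 -0.27 ± 0.237, adjusted p = 0.339, in KO and -0.17 ± 0.236, adjusted p = 0.564, in WT tissue). Without KO cold replicate 3 the KO value was -0.55 and passed (adjusted p = 0.0145). It did not pass with any other library left out, and over all 20 such fits it ran from -0.55 to -0.058 (adjusted p up to 0.813).

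Lpin2 (chr17:71182560-71249817, plus strand) encodes a lipin that is mutated in the human inflammatory disorder Majeed syndrome. It measured 14.8, 13.6, 14.6, 14.5 and 14.2 CPM in KO cold libraries, against 13, 11.1, 11.9, 11.3 and 11.5 CPM in KO RT libraries, with no overlap. It rose 1.22-fold with cold in KO tissue (log2 0.28 ± 0.0787, edgeR quasi-likelihood adjusted p = 0.00375), a call that was lost when the skeletal muscle marker mean was a term of the fit (0.22, adjusted p = 0.123). That mean itself separated KO cold from KO RT libraries, so the term and temperature cannot be fully told apart there. In WT tissue it ranged from 13.4 to 17.4 CPM in cold and from 12.5 to 15.7 CPM in RT libraries, which overlapped and did not pass (0.11 ± 0.0774, adjusted p = 0.217). Without WT RT replicate 4, the highest of its group, the WT value was 0.20 and passed (adjusted p = 0.0268), and without both intermediate WT libraries it was 0.23 (adjusted p = 0.0144).

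Lpin3 (chr2:160880670-160906002, plus strand) encodes the third lipin. It measured 4.98, 6.12, 6.88, 5.32 and 5.07 CPM in KO cold libraries, against 2.44, 3.02, 3.04, 3.46 and 3.44 CPM in KO RT libraries. In WT tissue it measured 7.25, 6.66, 6.35, 5.51 and 5.27 CPM in cold libraries, against 3.66, 3.46, 3.14, 2.73 and 4.09 CPM in RT libraries. Every cold library lay above every RT library. The rise was 1.84-fold in KO (log2 0.88 ± 0.132, edgeR quasi-likelihood adjusted p = 6.62e-06) and 1.82-fold in WT tissue (0.86 ± 0.129, adjusted p = 7.36e-06), at a low level: the 20 libraries together held 3358 counts of Lpin3, beside 222933 of Lpin1.

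The balance of Lpin1 and Lpin3 moved with cold. The ratio of Lpin1 to Lpin3 per length averaged 15.2 in KO cold and 36.7 in KO RT libraries (log2 difference -1.27, exact 2-sided permutation p = 0.00794, adjusted p = 0.0317), and 19.3 in WT cold and 40 in WT RT libraries (-1.05, the same exact permutation p and adjusted p). Lpin1 still made up 89.1 ± 4.26% of the summed lipin level per length in KO cold, 94.4 ± 0.671% in KO RT, 91.7 ± 2.07% in WT cold and 94.8 ± 0.496% in WT RT libraries. The ratio of Lpin1 to Lpin2 did not pass in KO (log2 -0.67, exact 2-sided permutation p = 0.0794, adjusted p = 0.132) or in WT tissue (-0.30, exact permutation p = 0.143, adjusted p = 0.22). The Lpin1 to Lpin3 ratio missed the threshold without any 1 KO RT library (-1.32 to -1.22, adjusted p up to 0.0635) or without WT RT replicate 1, 3 or 4 (-1.05 to -0.98, adjusted p up to 0.0794). The coarse steps of the exact p, described for Agpat2 to Agpat3, apply to these losses too. Without KO cold replicate 3 the Lpin1 to Lpin2 value in KO tissue was -0.91 and passed (exact permutation, adjusted p = 0.0265).

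Dgat1 (chr15:76502015-76511953, minus strand) encodes the DGAT of the acyl-CoA:cholesterol acyltransferase family, an enzyme of the endoplasmic reticulum that also re-esterifies fatty acids freed by lipolysis. It measured 311, 561, 470, 379 and 507 CPM in KO cold libraries, against 192, 165, 176, 154 and 162 CPM in KO RT libraries. WT tissue gave 349, 422, 452, 469 and 386 CPM in cold libraries, against 189, 187, 160, 180 and 200 CPM in RT libraries. The lowest cold library was above the highest RT library in each genotype. Dgat1 rose 2.63-fold in KO (log2 1.39 ± 0.123, edgeR quasi-likelihood adjusted p = 8.15e-09) and 2.27-fold in WT tissue (1.18 ± 0.122, adjusted p = 7.46e-08), within the upper 5% of log2 fold changes of all tested genes, which began at 1.02 in KO and 0.93 in WT tissue.

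Dgat2 (chr7:99153658-99182719, minus strand) encodes the other DGAT, which sits at the endoplasmic reticulum and at lipid droplets and is tied to newly made fatty acids. It measured 661, 729, 665, 632 and 487 CPM in KO cold libraries, against 1299.4, 1662.9, 1821.9, 1823.3 and 1871.1 CPM in KO RT libraries. Its WT values were 580, 566, 503, 753 and 638 CPM in cold libraries, against 1646.2, 1610.5, 1411.2, 1009.8 and 1281.8 CPM in RT libraries. Groups did not overlap, and the library nearest the other temperature was WT RT replicate 4. Dgat2 fell 2.67-fold in KO (log2 -1.42 ± 0.139, edgeR quasi-likelihood adjusted p = 3.55e-08) and 2.29-fold in WT tissue (-1.20 ± 0.138, adjusted p = 3.62e-07), short of the lower 5% of all tested genes, which began at -1.43 in KO and -1.33 in WT tissue.

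**Figure D2:**
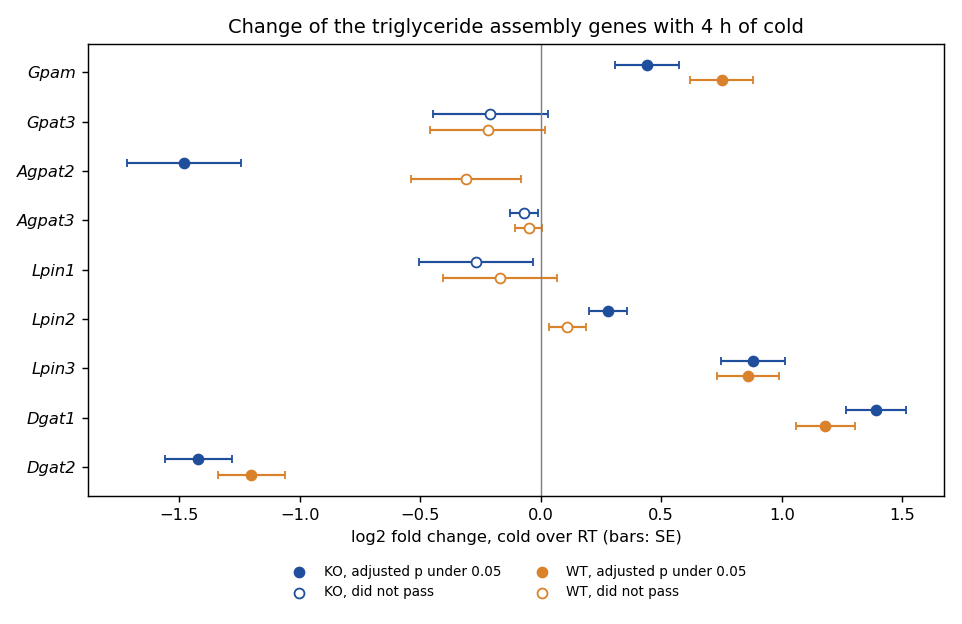
Change of each of the 9 genes with cold (horizontal axis, log2 fold change of cold over room temperature; bars are SE), KO above WT in each pair; filled points passed at an adjusted p of 0.05 and open points did not. Dgat1 lies at 1.39 in KO and 1.18 in WT tissue and Dgat2 at -1.42 and -1.20, and Agpat2 passed in KO tissue only, at -1.48, beside -0.31 in WT tissue.

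The opposite moves of the DGAT genes shifted their balance within every cold library. The ratio of Dgat1 to Dgat2 per length averaged 0.699 in KO cold and 0.102 in KO RT libraries, a 6.89-fold rise (log2 difference 2.78, exact 2-sided permutation p = 0.00794, adjusted p = 0.0317). It averaged 0.692 in WT cold and 0.134 in WT RT libraries, a 5.15-fold rise (2.37, the same exact permutation p and adjusted p). Dgat1 made up 41.3 ± 7.07% of the summed DGAT level per length in KO cold and 9.36 ± 2.08% in KO RT libraries, and 41 ± 4.25% in WT cold and 12 ± 2.28% in WT RT libraries (SD, n = 5 each). The summed level of both, in CPM per kilobase of exon (RPKM), was 352 ± 43.3 in KO cold and 606 ± 72.5 in KO RT libraries, and 333 ± 38 in WT cold and 511 ± 85 in WT RT libraries. The fall of Dgat2 in RPKM was thus larger than the rise of Dgat1. Without KO RT replicate 3, 4 or 5 the KO ratio, at 2.72 to 2.77, had an adjusted p of 0.0529 by the exact permutation test. Its log2 difference was nearly unchanged. Exact p values from so few libraries come in coarse steps, and the adjusted p also depends on the other ratio tests.

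**Figure D3:**
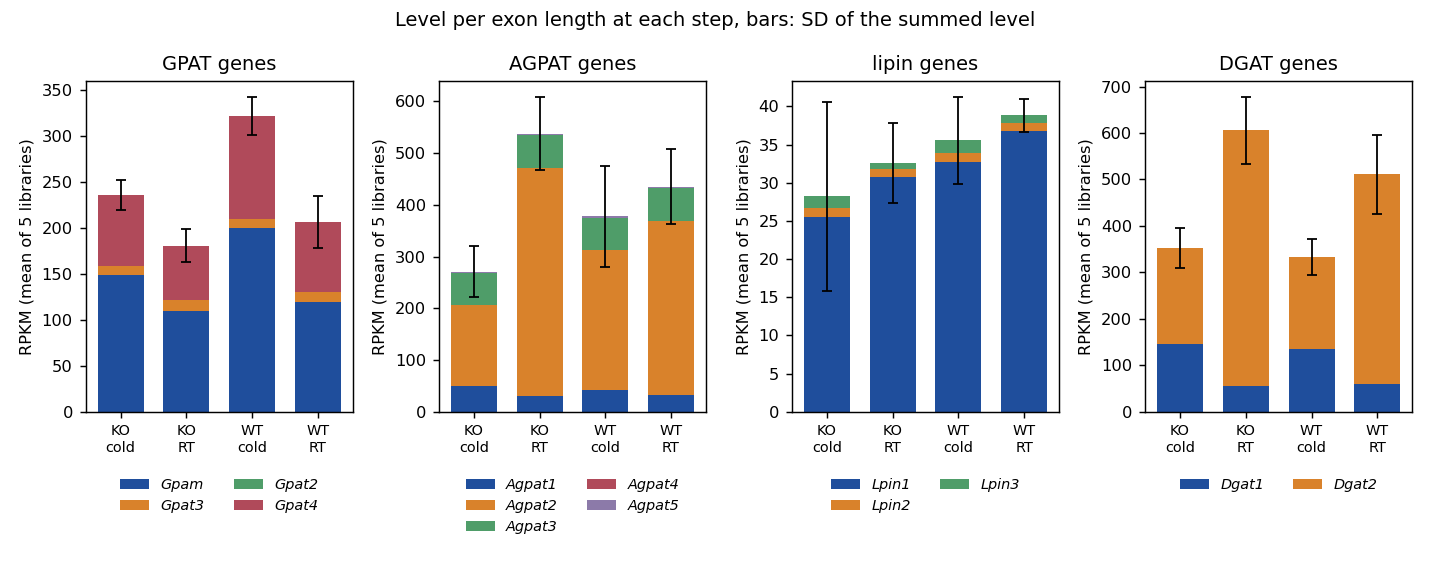
Level per length (RPKM, linear axis from 0) of the enzymes of each step, as group means stacked by gene in the 4 groups. The DGAT sum is 352 RPKM in KO cold, 606 in KO RT, 333 in WT cold and 511 in WT RT libraries, and Dgat1 takes a larger share of it in both cold groups.

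Per length, the order of the 9 genes depended on temperature at its upper end. In KO RT and WT RT libraries it ran Dgat2 (mean 550 RPKM in KO RT and 451 in WT RT), Agpat2 (439 and 337), Gpam (110 and 119), Agpat3 (64.8 and 62.9), Dgat1 (55.5 and 59.9), Lpin1 (30.8 and 36.8), Gpat3 (11 and 11.1), Lpin2 (0.963 and 1.1) and Lpin3 (0.834 and 0.925). In both RT groups the library ranges of Dgat2 and Agpat2, of Agpat3 and Dgat1, and of Lpin2 and Lpin3 overlapped, and the other neighbours did not. In KO cold libraries Dgat2 (206 RPKM), Agpat2 (157), Gpam (149) and Dgat1 (146) each overlapped the next in order, and all lay above Agpat3 (61.8). In WT cold libraries Agpat2 (272), Gpam (200) and Dgat2 (197) overlapped in turn, and Dgat1 (136) was below them and above Agpat3 (61). Lpin3 ranked above Lpin2 in both cold groups, at 1.54 and 1.17 RPKM in KO cold and 1.68 and 1.19 RPKM in WT cold libraries. Lengths are those of all annotated exons together, 12233 bases for Lpin2 and 2130 for Agpat2, so transcripts that use fewer exons are understated.

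At room temperature 0 of the 9 passed edgeR's quasi-likelihood test in either direction, where 1.38% of all tested genes were called higher and 1.32% lower in KO. DESeq2 also called 0. Lpin2 (log2 -0.20 ± 0.0782, unadjusted p = 0.0194, adjusted p = 0.231) and Dgat2 (0.28 ± 0.136, unadjusted p = 0.0493, adjusted p = 0.359) were the genes with an edgeR unadjusted p under 0.05. The median of the 9 was -0.11, beside 0.00 over all tested genes. Agpat2 stood at 0.38 ± 0.23 (adjusted p = 0.509) and Lpin1 at -0.26 ± 0.236 (adjusted p = 0.718), and KO and WT libraries overlapped for all 9 genes.

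In the cold, Agpat2 was the gene of the 9 that passed, and it was lower in KO (log2 -0.79 ± 0.232, 1.73-fold, edgeR quasi-likelihood adjusted p = 0.044), where 3.51% of all tested genes were called higher and 4.19% lower. The median of the 9 was -0.03, beside 0.00 over all. KO cold replicate 5, at 531 CPM, lay within the WT cold range of 423 to 954 CPM, and the other KO cold libraries lay below it. Of the 12 brown adipocyte markers, 4 were lower and 0 higher in KO in the cold. At room temperature 2 of these markers were lower and 0 higher in KO, where 1.32% of all tested genes were called lower and 1.38% higher. The call of Agpat2 was close to the threshold. It was lost when any 1 of 14 of the 20 libraries was left out, and over all 20 the adjusted p ran from 0.00624 (without KO cold replicate 5, log2 -1.02) to 0.14 (without WT cold replicate 5, -0.54). Those whose removal lost it were KO cold replicates 1, 2, 3 and 4, KO RT replicates 1, 3, 4 and 5, WT cold replicates 1, 4 and 5, and WT RT replicates 1, 3 and 5. It was also lost without both intermediate WT libraries (-0.54, adjusted p = 0.119), with no filter on low counts (adjusted p = 0.0907), in a fit of the cold groups alone (0.145) and with the skeletal muscle term (0.0657).

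Gpam in the cold was 25.5% lower in KO, with no overlap between 837 to 1167.1 CPM in KO and 1178.6 to 1508.0 CPM in WT libraries, and fell just short of the threshold (log2 -0.42 ± 0.132, edgeR quasi-likelihood adjusted p = 0.0545). It passed with DESeq2 (-0.43, adjusted p = 0.0195), in a fit of the cold groups alone (adjusted p = 0.0183), with the replicate block (-0.43, adjusted p = 0.0437), and without KO cold replicate 5 (-0.49, adjusted p = 0.0384), WT RT replicate 3 (adjusted p = 0.0364) or WT RT replicate 5 (adjusted p = 0.013). It did not pass with any other library left out, and over all 20 such fits it ran from -0.49 to -0.37 (adjusted p up to 0.132). Gpam also did not pass with no filter on low counts, with the skeletal muscle term or without both intermediate WT libraries. Lpin1 stood at -0.36 ± 0.237 (adjusted p = 0.444), and without KO cold replicate 3 at -0.67, which passed (adjusted p = 0.0338). With any other library left out Lpin1 did not pass, and over all 20 such fits it ran from -0.67 to -0.17 (adjusted p up to 0.69). The other 6 genes stood between -0.13 (Lpin3) and 0.10 (Dgat1). The ratio of Agpat2 to Agpat3 in the cold was 2.46 in KO and 4.26 in WT libraries (log2 difference -0.79, exact 2-sided permutation p = 0.0397, adjusted p = 0.113), and passed without KO cold replicate 5 (adjusted p = 0.0265). The ratio of Dgat1 to Dgat2 in the cold was 0.699 in KO and 0.692 in WT libraries (log2 difference 0.01, exact 2-sided permutation p = 0.968).

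**Figure D4:**
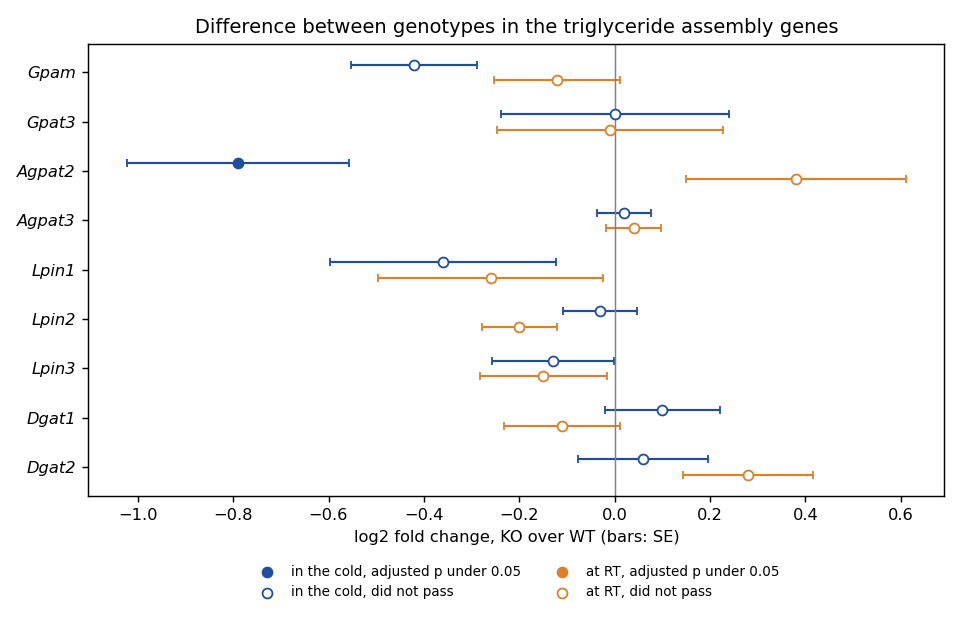
Difference of each of the 9 genes between genotypes (horizontal axis, log2 fold change of KO over WT; bars are SE), in the cold and at room temperature; filled points passed at an adjusted p of 0.05. Agpat2 in the cold, at -0.79, is the filled point, and Gpam in the cold lies at -0.42.

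The test of whether cold acted differently in KO and WT tissue called 0 of the 9 genes, where 0.427% of all tested genes were called higher and 0.315% lower. DESeq2 called 0 as well, and Agpat2, given above, was the gene with an edgeR unadjusted p under 0.05. The other differences, KO minus WT, lay between -0.30 ± 0.186 (Gpam) and 0.21 ± 0.171 (Dgat1) on the log2 scale, with Dgat2 at -0.22 ± 0.193. The cold comparisons share their cold groups with the comparison of genotypes in the cold and their RT groups with that at room temperature, so the values of 1 gene across them are not independent.

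For each of the 3 genes that moved by at least 2-fold with a call, the 3 genes with the nearest profile were taken over the 20 libraries, by the root mean square difference of centred log2 CPM among 8934 genes with a mean of at least 5 CPM. Agpat2, whose own root mean square was 0.65, was nearest to Pygl (0.26), Slc1a3 (0.26) and Rap1gap (0.27). Pygl, the liver form of glycogen phosphorylase, averaged 242 CPM in KO cold, 599 in KO RT, 319 in WT cold and 414 in WT RT libraries. Dgat1 (own value 0.67) was nearest to Prkar1a (0.18), Atp2a2 (0.18) and Akirin1 (0.19). Prkar1a, a regulatory subunit of protein kinase A, averaged 620 CPM in KO cold, 274 in KO RT, 551 in WT cold and 291 in WT RT libraries, and Atp2a2, the calcium pump SERCA2, averaged 1035.4, 404, 919 and 418 CPM in the same groups. Dgat2 (own value 0.69) was nearest to Mettl8 (0.18), Arhgef40 (0.18) and Popdc2 (0.20). All 20 libraries share the temperature contrast, and likeness to a gene is given as a description.

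Other genes of glycerolipid synthesis, a list of 30 of which 27 passed the filter (Gpat2, Acsl6 and Fitm1 did not), also moved with cold. In KO tissue 14 of 27 were higher and 9 lower, and in WT tissue 14 were higher and 4 lower, with a median log2 fold change of 0.24 in each, beside -0.05 over all tested genes. The shares of all tested genes called were 27.5% higher and 31.7% lower in KO, and 26.2% higher and 30.2% lower in WT tissue. With the skeletal muscle term, 5 of the list were lower in KO and 2 in WT tissue. With 1 library left out, 13 to 14 were higher and 6 to 9 lower in KO tissue. In WT tissue 12 to 14 were then higher and 3 to 5 lower. Lclat1, an acyltransferase known for remodelling cardiolipin, rose 5.05-fold in KO (log2 2.34 ± 0.196) and 4.28-fold in WT tissue (2.10 ± 0.194). Gk, glycerol kinase, rose by 1.37 ± 0.156 in KO and 1.28 ± 0.155 in WT tissue. Plpp1, a broad lipid phosphate phosphatase, rose by 0.76 ± 0.142 and 0.59 ± 0.141, and Acsl4, an acyl-CoA synthetase that prefers arachidonate, by 0.89 ± 0.0925 and 0.58 ± 0.0921 in KO and WT tissue. Selenoi, which uses diacylglycerol to make phosphatidylethanolamine, rose by 0.36 ± 0.0682 in KO and 0.66 ± 0.0673 in WT tissue. Of the other GPAT and AGPAT genes, 4 of 5 were higher in the cold in each genotype, among them Gpat4 (0.38 ± 0.0969 in KO and 0.55 ± 0.097 in WT tissue). Agpat4, also among them, lost its WT call (0.37 ± 0.155, edgeR quasi-likelihood adjusted p = 0.0463) without WT cold replicate 1, 2, 3 or 4 or WT RT replicate 1, 2 or 5 (0.29 to 0.40, adjusted p up to 0.134), with no filter (0.0967), in the fit of the WT groups (0.063), and with the muscle term in WT (adjusted p = 0.202) and in KO tissue (0.196).

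Among those that were lower with cold, Gpd1l, related to glycerol 3-phosphate dehydrogenase, stood at -1.14 ± 0.102 in KO and -1.31 ± 0.102 in WT tissue, and Cds2, which turns phosphatidate toward phosphatidylinositol, at -0.47 ± 0.0504 and -0.48 ± 0.0502. Mogat1 and Mogat2, of the monoacylglycerol route to diacylglycerol, stood at -1.32 ± 0.218 and -1.29 ± 0.344 in KO tissue. Mogat2 was near the floor, at means of 0.196 CPM in KO cold, 0.467 in KO RT, 0.223 in WT cold and 0.34 in WT RT libraries. Mogat1 averaged 4.2 CPM in KO cold and 10.5 CPM in KO RT libraries. In WT tissue Mogat1 passed at -0.66 ± 0.215 and Mogat2 did not (-0.62 ± 0.327, edgeR quasi-likelihood adjusted p = 0.112), though Mogat2 passed with unstranded counts (-1.03, adjusted p = 0.00399) and without WT cold replicate 4 (-0.81, adjusted p = 0.0492). Acsl5 passed in KO tissue (-0.73 ± 0.262) and not in WT tissue (0.27 ± 0.26, adjusted p = 0.393), and the difference did not pass (adjusted p = 0.326). Bscl2, the droplet protein seipin, passed in both (-0.42 ± 0.0979 in KO and -0.32 ± 0.0975 in WT tissue). The KO call of Acsl5 was lost without KO cold replicate 1 (-0.57) or 5 (-0.67) or KO RT replicate 1 (-0.65) or 2 (-0.56), and the WT call of Bscl2 without WT RT replicate 5 (-0.21). With the skeletal muscle term the calls of Acsl5 in KO tissue, of Bscl2 in both genotypes, of Gpat4 in KO tissue and of Mogat1 in WT tissue were lost (adjusted p from 0.0528 to 0.253).

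**Figure D5:**
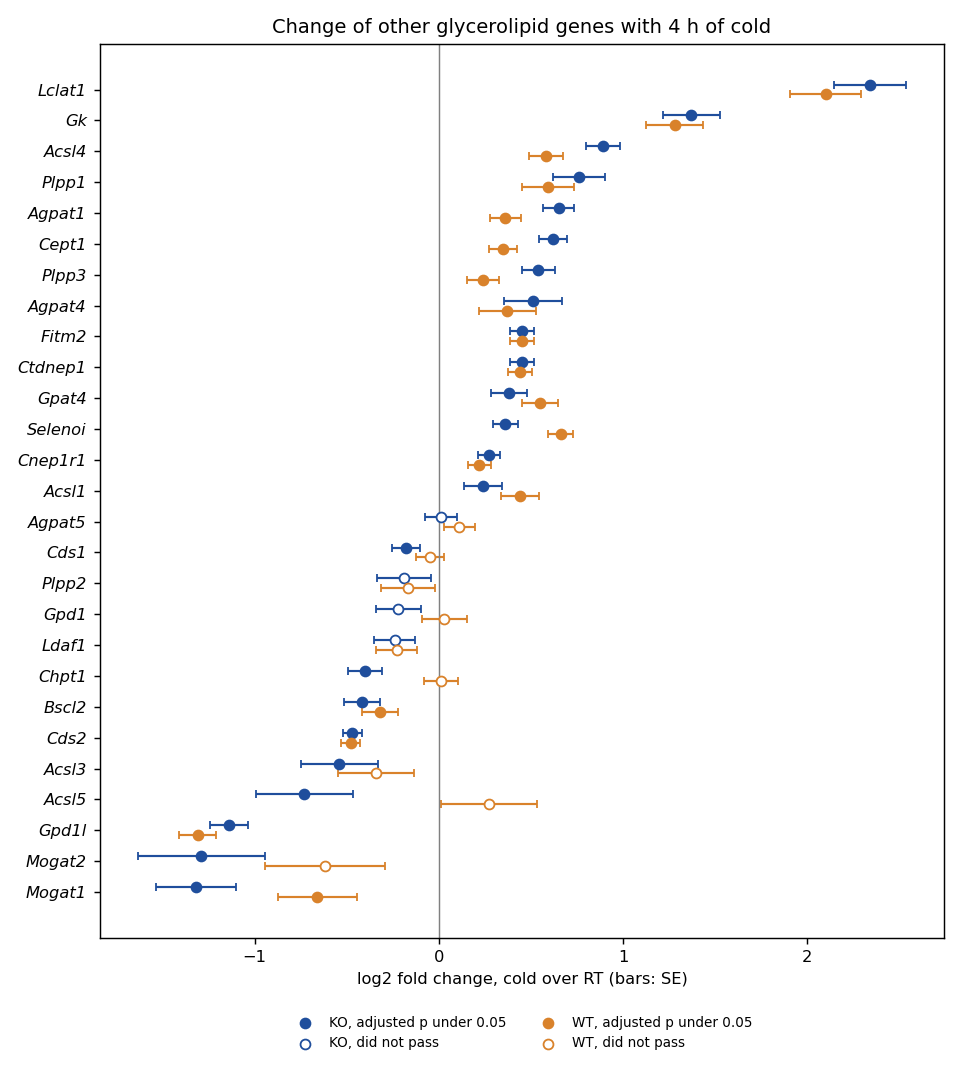
Change with cold of the 27 other tested genes of glycerolipid synthesis, KO tissue and WT tissue (log2 fold change of cold over room temperature), ordered by the KO value; bars are SE and filled points passed at an adjusted p of 0.05. Lclat1 at 2.34 in KO and 2.10 in WT tissue and Gk at 1.37 and 1.28 lie highest, and Mogat1 at -1.32 in KO and Gpd1l at -1.31 in WT tissue lie lowest.

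Between genotypes, 3 of these 27 genes were lower and 0 higher in KO at room temperature: Gpat4 (-0.36 ± 0.0969, edgeR quasi-likelihood adjusted p = 0.0455), Cept1 (-0.34 ± 0.0767, adjusted p = 0.0147) and Selenoi (-0.29 ± 0.0679, adjusted p = 0.0186). Of all tested genes, 1.38% were called higher and 1.32% lower in KO at room temperature, and 3.51% higher and 4.19% lower in the cold. In the cold, Selenoi (-0.59 ± 0.0675, adjusted p = 4.6e-06), Gpat4 (-0.53 ± 0.097, adjusted p = 0.000903) and Acsl1 (-0.35 ± 0.103, adjusted p = 0.0386) were lower in KO, and Acsl4 was higher (0.43 ± 0.0916, adjusted p = 0.00393). Acsl1 is the main long-chain acyl-CoA synthetase of fat, and Cept1 completes phosphatidylcholine and phosphatidylethanolamine. At room temperature Gpat4 lost its call without any 1 of 13 libraries (adjusted p up to 0.136, without KO RT replicate 4), among them WT RT replicate 4 (0.109). Gpat4 also lost it without both intermediate WT libraries (0.078), with the replicate block (0.0669) and with the skeletal muscle term (0.0631). Selenoi lost its call without KO RT replicate 3 (0.063) or WT RT replicate 5 (0.0701). In the cold Acsl1 lost its call without any 1 of 8 libraries (adjusted p up to 0.134, without WT cold replicate 5). It was also lost without both intermediate WT libraries (0.114) and in the fit of the cold groups alone (0.0827).

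Markers of other cell types were read as well. With cold, 27.5% of all tested genes were called higher and 31.7% lower in KO, and 26.2% and 30.2% in WT tissue. Counts in short lists near these shares do not single out a cell type. Of 18 skeletal muscle markers, 1 was higher and 15 were lower with cold in KO tissue and 16 were lower in WT tissue. Their summed level ran from 129 to 161 CPM in KO cold and from 147 to 777 CPM in KO RT libraries, and from 125 to 184 CPM in WT cold and from 134 to 1662.8 CPM in WT RT libraries. Ckm, Myh4 and Myh7 were at 0 in every KO cold library and Myh7 in every WT cold library. In a fit that included the mean of the muscle markers, Gpam, Lpin3, Dgat1 and Dgat2 kept their cold calls in both genotypes, and Agpat2 kept its call in KO tissue. That mean, in log2 CPM, ran from -1.85 to -1.51 in KO cold and from 1 to 4.68 in KO RT libraries. A call lost with the term in KO tissue therefore cannot be assigned to muscle. Of 7 lymphocyte markers, 3 were lower in KO and 4 in WT tissue in the cold, at 0.855 to 1.54 CPM in KO cold and 2.12 to 3.21 CPM in KO RT libraries, and 0.853 to 1.91 CPM in WT cold and 1.98 to 3.18 CPM in WT RT libraries. Of 7 endothelial markers, 3 were higher and 3 lower with cold in KO tissue, at 858 to 990 CPM in KO cold and 600 to 794 CPM in KO RT libraries, and 2 were higher and 3 lower in WT tissue, at 760 to 939 CPM in WT cold and 701 to 895 CPM in WT RT libraries. Of 4 smooth muscle markers, 3 were higher with cold in KO and 1 in WT tissue, at 132 to 161 CPM in KO cold and 93.4 to 126 CPM in KO RT libraries, and 85.3 to 133 CPM in WT cold and 87 to 119 CPM in WT RT libraries. Of 6 fibroblast and progenitor markers, 2 at room temperature and 3 in the cold were higher in KO, at 398 to 439 CPM in KO cold and 318 to 354 CPM in WT cold libraries. Of all tested genes, 1.38% at room temperature and 3.51% in the cold were called higher in KO. The 5 white adipocyte markers summed to 19 to 30.9 CPM in KO cold and 23.6 to 44.1 CPM in KO RT libraries. In WT tissue they summed to 19.7 to 46.2 CPM in cold and 28.8 to 55.2 CPM in RT libraries. Replicate 5 was the highest of each cold group, as it was for Agpat2. The same held for the lymphocyte, macrophage and erythrocyte markers, so it was not particular to white adipocyte markers. The 7 macrophage markers summed to 112 to 141 CPM in KO cold and 97.6 to 140 CPM in WT cold libraries. The 3 erythrocyte markers summed to 1004.6 CPM in WT cold replicate 5 and to 242 to 322 CPM in the other WT cold libraries. The part of these cells in the values of the 9 genes was not tested beyond the muscle term.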

How the data were processed

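Per the labels' protocols, total RNA was extracted with a PureLink kit and stranded mRNA libraries were made with a KAPA kit. Per the submitters' processing notes, Trim Galore 0.6.0, STAR 2.7.8a and the builds GRCm38.p6 and mm10 were used, and the annotation release is not given in the sources used here. Each library has 1 deposited table of counts in the layout of STAR: reads assigned to each gene, not normalised, for both strands together and for each strand. Reverse-strand counts were used, since 94.5 to 95.7% of stranded gene counts lay there. Entries that name no gene were left out (3.86 to 5.66% unmapped, 18.26 to 21.41% at several places, 3.14 to 4.55% in no feature and 1.02 to 1.16% ambiguous). Totals of 27.07 to 55.18 M counts bound the precision of low genes such as Lpin3. Of 55471 IDs, 55230 matched GENCODE M21.

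Samples were grouped by the labels. In R 4.3.3, edgeR 4.0.16 scaled the libraries by TMM, kept 15233 genes with filterByExpr (count minimum 10, total minimum 15), and fitted all 4 groups in 1 robust quasi-likelihood model (residual degrees of freedom: 16). The 5 comparisons were cold in KO, cold in WT, KO over WT at room temperature and in the cold, and the interaction. Each SE is the log2 fold change over the square root of F. Log2 CPM used a prior count of 2, and RPKM divides CPM by the length of all exons. Ratios between members used a pseudocount of 0.5 counts and exact permutation tests over 252 arrangements. Within groups, libraries differed by 13.9 to 97.1 times counting error (chi-square per degree of freedom), so none was a copy of another. The labels give no pairing of libraries by replicate number, and the main fit used none. The fit and the permutation test were tested on simulated data.

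The 9 members, the lists, tests and alternatives were chosen with earlier results of these data known, among them the removal of the intermediate WT libraries. Named beyond the 9 were Cebpb, up to 4 called genes of the glycerolipid list per direction and comparison, by size, with their values in the other genotype, and the 3 nearest profiles of members called at 2-fold or more. Mogat2 and Acsl5 in WT tissue, which did not pass, are given beside their KO values, and Agpat4 was named after its values were seen. As alternatives the fit was run with relative log expression normalization, no filter, DESeq2 1.42.0, a fit of only the groups compared, a replicate block, unstranded counts, a skeletal muscle term, each library left out, and for ratios a pseudocount of 5 counts.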

Additional observations from a re-analysis of the deposited data

Results flagged for a closer look

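A library that stood far from the others of its group was found in 3 of the 36 sets of 5 libraries examined for the 9 genes (gap to the nearest library over the range of the group, on log2 CPM, above 0.71), where chance gives about 1 in 20. Agpat2 in KO cold replicate 5 was high at 531 CPM (0.727 of the range). Agpat3 in WT cold replicate 4 was high at 502 CPM (0.728), within the range of the other groups. Lpin2 in WT RT replicate 4 was high at 15.7 CPM (0.738), in 1 of the 2 WT libraries that stood between the temperatures. Agpat2 and Lpin2 without these libraries are given beside their results, and Agpat3 passed in 0 of the 20 fits with 1 library left out in any comparison.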

How the results depend on the processing

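The cold calls of Gpam, Lpin3, Dgat1 and Dgat2 in both genotypes and of Agpat2 in KO tissue held under every alternative fit and with each library left out, and no called value changed sign. Alternatives moved few counts of called genes among the 9. Those lower with cold in WT tissue numbered 2 without both intermediate WT libraries, and 1 to 2 with 1 library left out. Those lower in KO in the cold numbered 2 with DESeq2 and 2 with the replicate block (Agpat2 and Gpam), 0 with no filter, 0 with the muscle term and 0 without both intermediate WT libraries, and 0 to 2 with 1 library left out. Those lower in the interaction numbered 0 to 1. The replicate numbers share no source in the labels: deviations of same-numbered libraries correlated at -0.18 to 0.27, 7 of 20 libraries lay closest to their own number, and the block otherwise changed the calls of Gpat4 at room temperature (-0.36, adjusted p = 0.0669) and Cds1 with cold in KO tissue (-0.18, adjusted p = 0.0596). Of the 27 other glycerolipid genes, those lower with cold numbered 5 in KO and 2 in WT tissue with the muscle term. At room temperature 1 was higher in KO in the fit of only the groups compared, without KO RT replicate 1 and without WT RT replicate 3, and 1 was lower without KO RT replicate 3 or WT RT replicate 5. In the cold 2 were higher in KO without both intermediate WT libraries and without WT cold replicate 1 or 5. A fit of the WT groups alone lost Mogat1 with cold (-0.63, adjusted p = 0.0652).

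Values near 0 that were not called changed sign in places, and the cause was not tested. For KO over WT, Gpat3 at room temperature was 0.077 without both intermediate WT libraries and ran from -0.18 to 0.13 with 1 library left out, and in the cold it was 0.0015 in the fit of the cold groups, 0.007 with the muscle term and 0.014 without both intermediate WT libraries, and ran from -0.078 to 0.13. Agpat3 in the cold was -0.0059 with no filter and ran from -0.018 to 0.05, Lpin2 from -0.062 to 0.043, and Gpam at room temperature from -0.21 to 0.025. Agpat3 with cold in WT tissue ran from -0.051 to 0.022. In the interaction, Gpat3 was -0.0098 with no filter, -0.00019 with unstranded counts and -0.063 without both intermediate WT libraries and ran from -0.13 to 0.18, Lpin3 was -0.0058 with no filter and ran from -0.066 to 0.09, Agpat3 ran from -0.062 to 0.0097 and Lpin1 from -0.41 to 0.084.

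With 1 library left out, log2 ratio differences ran as follows in the exact permutation tests. Gpam to Gpat3 ran from 0.46 to 0.82 with cold in KO, from 0.81 to 1.17 with cold in WT and from -0.30 to 0.13 for KO over WT at room temperature. Agpat2 to Agpat3 ran from -1.66 to -1.36 with cold in KO, and for KO over WT from 0.26 to 0.44 at room temperature and from -1.0 to -0.59 in the cold. Lpin1 to Lpin2 ran from -0.91 to -0.42 with cold in KO, and Lpin1 to Lpin3 from -1.43 to -1.06 in KO and from -1.17 to -0.95 in WT tissue. Dgat1 to Dgat2 ran from 2.64 to 2.92 with cold in KO, and for KO over WT from -0.54 to -0.30 at room temperature and from -0.13 to 0.15 in the cold. Ratio calls were gained for Gpam to Gpat3 with cold in KO without KO RT replicate 2 (adjusted p = 0.0397) and in WT without WT RT replicate 2 (0.0265), for Agpat2 to Agpat3 in KO over WT at room temperature without WT RT replicate 2 (0.0265) and in the cold without KO cold replicate 5 (0.0265), and for Dgat1 to Dgat2 at room temperature without KO RT replicate 1 (0.0397). Unstranded counts and the larger pseudocount changed no ratio call.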
